A study of Mus musculus with 30 samples.

Results

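Myc, Bhlhe40, Runx1, Runx2, Maff, Bach1, Cebpb and Cebpd encode transcription factors that often respond to an acute stimulus after the immediate early genes, the genes such as Fos and Egr1 that are transcribed before any protein has to be made. The 8 genes were chosen on their values 3 h after surgery, so that time point is described here without a test, and the tests concern later time points and other genes. They were among 24601 genes in the table of the muscularis externa and among 22666, 22704 and 22119 genes in the RiboTag tables that held the 3 h, 24 h and 72 h libraries. All 8 were listed in each of these tables except that of RiboTag at 72 h, which listed 7 and did not list Myc.

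The tissue was the small bowel muscularis externa (ME), the muscle wall with its plexus of neurons and glia. Mice were naïve or had undergone intestinal manipulation (IM), a surgical model of post-operative ileus, 3, 24 or 72 h earlier (IM3h, IM24h, IM72h). Total ME RNA came from 3 naïve, 3 IM3h, 4 IM24h and 4 IM72h libraries. RiboTag RNA, which is RNA bound to ribosomes that carry an HA tag on the protein Rpl22, came from 3 naïve and from 4 libraries at each later time. In RiboTag mice the tag was switched on by Sox10-iCre/ERT2, a tamoxifen-activated Cre in Sox10-expressing cells, which in this tissue are the enteric glia. All groups carried the Rpl22 tag allele. By the labels, ME libraries of naïve and IM3h mice came from a cross with Gfap-cre, and those of IM24h and IM72h mice from the cross with Sox10-icre/ERT2. In ME, Cre line and time cannot therefore be told apart when IM24h or IM72h is set against naïve, while IM3h against naïve and IM72h against IM24h lie within 1 line each.

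MYC binds E-boxes as a dimer with MAX and drives genes of ribosome production and growth, and BHLHE40 is a repressor that binds E-boxes and takes part in the circadian clock. RUNX1 and RUNX2 bind DNA with the partner CBFB and are best known from blood and bone. MAFF is a small MAF protein without an activation domain of its own, and BACH1 is a heme-sensing repressor that pairs with small MAF proteins at antioxidant genes such as Hmox1. C/EBP beta and C/EBP delta are bZIP factors of the acute-phase and cytokine response. In bulk RNA of this kind, fewer cells of a type and less RNA per cell cannot be told apart.

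The libraries were not equally informative, which sets how firmly each group can be read. ME libraries held 6603170 to 12866062 counts and RiboTag libraries 3010306 to 7899493. Genes of ribosomal RNA took 3.27 to 15.2% of counts in naïve and IM3h RiboTag libraries, 23.9 to 62.2% at IM24h and 60.2 to 81.7% at IM72h. In ME they went the other way, with 21.9 to 41.0% in naïve and 32.4 to 33.4% in IM3h libraries, 6.55 to 13.9% at IM24h and 2.90 to 4.40% at IM72h, and the part of this in the ME comparisons with naïve tissue was not tested. Sox10 itself, the gene that defines the tagged cells, stood at 481, 1027 and 565 CPM (counts scaled to a common library size) in naïve RiboTag libraries and at 274 to 399.8 CPM at IM3h. At IM24h it was 416, 38.1, 53.6 and 259 CPM, so libraries 2 and 3 stood apart, and at IM72h it was 11.9, 2.64, 0 and 1.24 CPM. The RiboTag IM72h libraries thus went against their label for the defining marker, and values from them are given as values of those libraries. In ME, Sox10 was 14.7 to 18.7 CPM in naïve tissue, 23.9 to 28.3 at IM3h, 27.2 to 70.2 at IM24h and 33.2 to 139 at IM72h. All levels below are CPM scaled by the trimmed mean of M-values (TMM) within a fraction, so levels are compared between libraries of 1 fraction and not between genes.

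At IM3h the ranges of all 8 genes in ME, and of 7 in RiboTag, lay above those of the naïve libraries, which describes how the genes were chosen. Runx2 was the exception in RiboTag. Over all genes, 21.6% in ME and 12.7% in RiboTag lay above the naïve range in this way. The ratio of the IM3h to the naïve mean ran from 5.6 for Runx2 to 39.6 for Cebpd in ME, and from 2.71 for Runx2 to 62.3 for Myc in RiboTag. The RiboTag ratios of Myc and Runx2 rest on few naïve counts, and their fitted log2 changes ran from 5.43 to 9.05 and from 0.96 to 3.29 when 1 library was left out. At IM24h all 8 were still above the naïve range in ME, where 18.6% of all genes were, and 5 of 8 were in RiboTag, where 5.90% of all genes were. For 1 of these 5, Bhlhe40, this depends on a retained-intron transcript, as described below. At IM72h, 6 of 8 were above it in ME, against 29.5% of all genes, and none of 7 in RiboTag, against 2.24%.

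**Figure D1:**
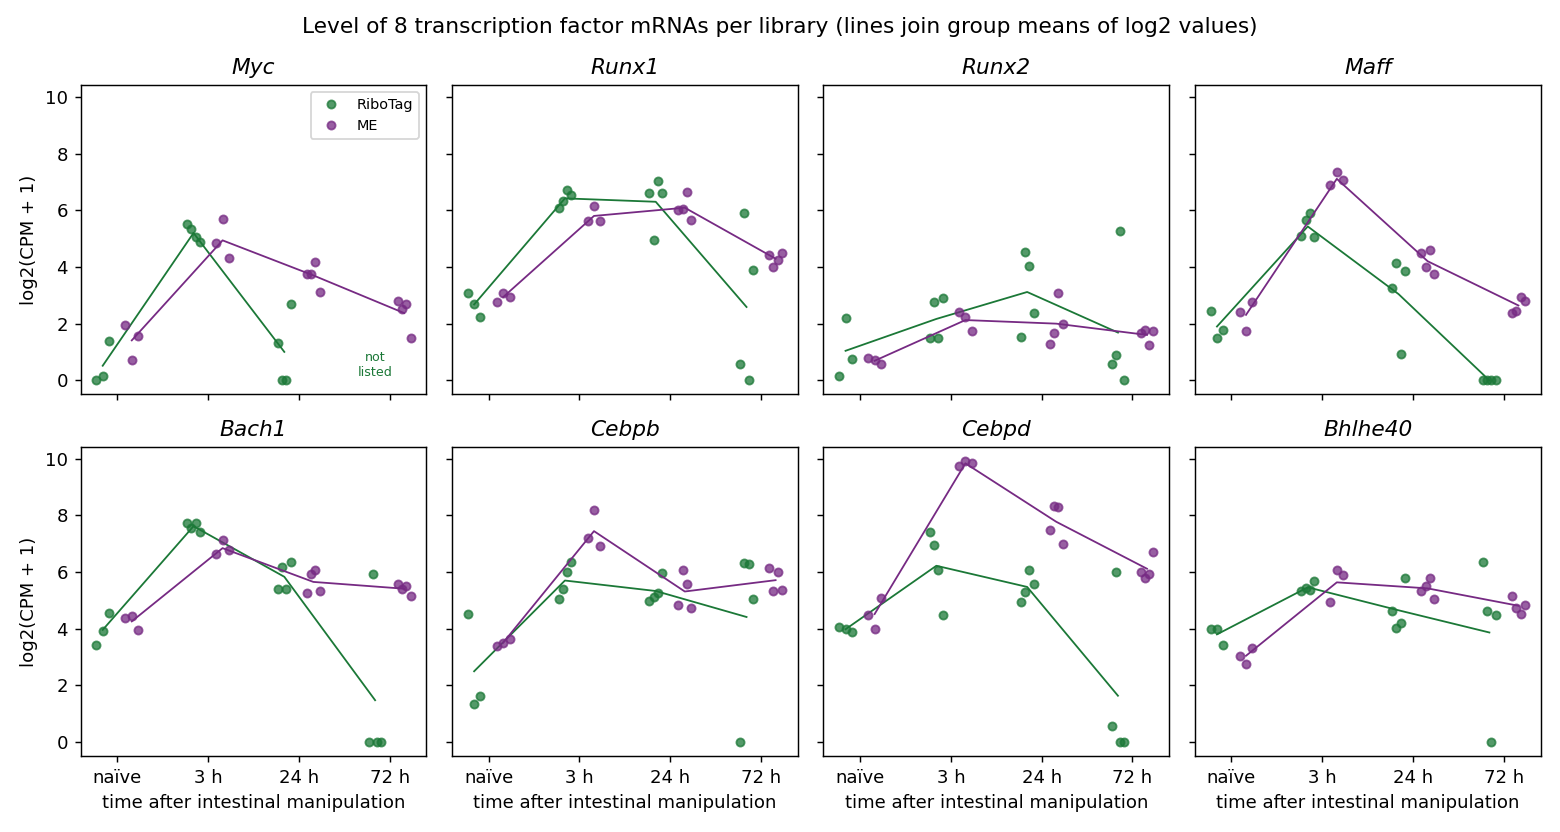
Level of each of the 8 genes in every library, as log2 of CPM plus 1 on the vertical axis, against group (naïve, IM3h, IM24h, IM72h) on the horizontal axis, with RiboTag in green, ME in purple and lines joining group means. All ME points at IM3h and IM24h lie above the naïve ME points, while the RiboTag points spread widely at IM72h.

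The question put to ME was which of these genes were still raised 24 and 72 h after surgery. By edgeR's quasi-likelihood test with Benjamini-Hochberg adjustment over all genes, all 8 were higher at IM24h than in naïve tissue. Of all 16328 genes tested, 15.6% were higher and 13.4% lower. Their median log2 fold change was 2.49, beside 0.02 over all genes. At IM72h, 6 of 8 were higher than in naïve tissue, where 29.3% of 16592 genes were higher and 28.3% lower, with a median of 1.52. Between IM24h and IM72h, within the Sox10 line, 5 of 8 were lower and none higher, where 19.9% of 16281 genes were lower and 18.6% higher, with a median of -1.15. The comparisons with naïve tissue share the naïve libraries that had also served to choose the genes. The comparison of IM72h with IM24h shares none of them.

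**Figure D2:**
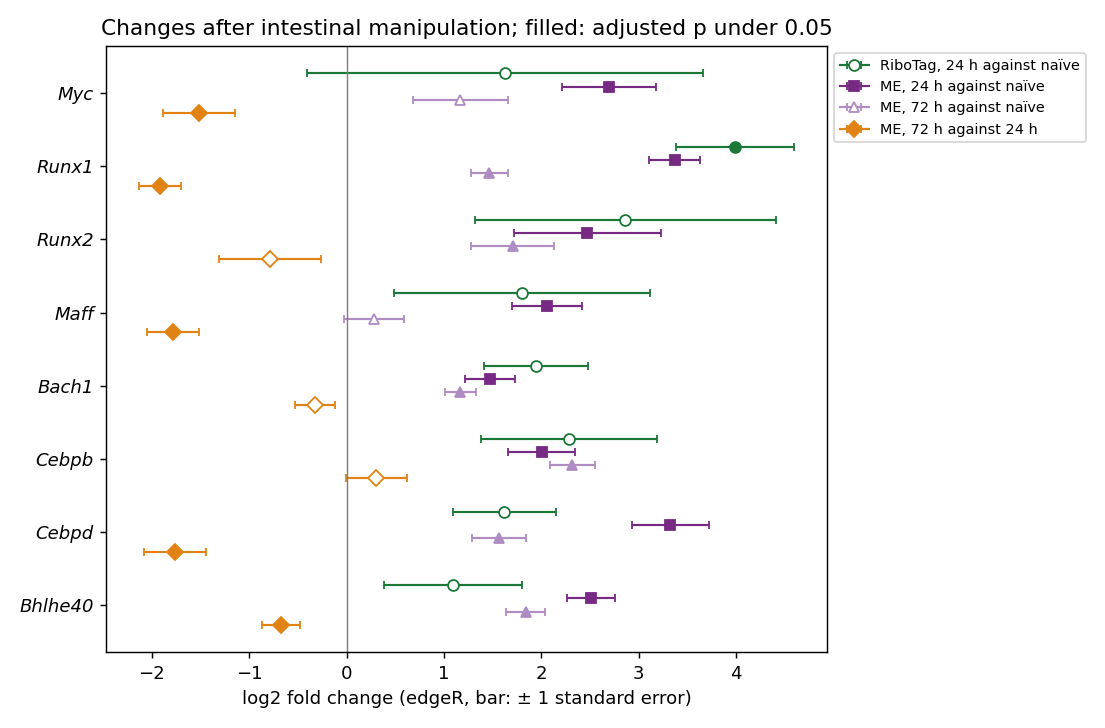
Log2 fold change with 1 standard error (horizontal axis) of each of the 8 genes in RiboTag at IM24h against naïve, and in ME at IM24h against naïve, IM72h against naïve and IM72h against IM24h. Filled points have an adjusted p under 0.05, and the ME points at IM24h lie between 1.47 and 3.37.

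Markers of other cells changed in ME too, not all with the time course of the 8 genes. The summed level of 7 macrophage markers was 177 to 185 CPM in naïve ME, 141 to 157 at IM3h, 382 to 551 at IM24h and 1140 to 1441 at IM72h, and 5 of the 7 rose at IM24h and all 7 at IM72h. The 5 listed neutrophil markers of 6 summed to 0.603 to 0.86 CPM in naïve ME, 23.9 to 32.7 at IM3h, 45.4 to 207 at IM24h and 18.1 to 52.5 at IM72h. In RiboTag the same neutrophil markers summed to 0.251 to 1.4 CPM in naïve libraries, with S100a8, Retnlg and Mmp8 at 0, and to 3.49 to 9.73 at IM3h and 7.11 to 48.7 at IM24h. Macrophage markers summed to 82.1 to 164 CPM in naïve, 61 to 125 in IM3h and 149 to 270 CPM in IM24h RiboTag libraries. In ME at IM3h, 3 of 3 tested neutrophil markers and 3 of 3 tested monocyte markers were higher, with median log2 changes of 5.79 and 1.17. Smooth muscle went the other way. Its 6 markers summed to 22033 to 23616 CPM in naïve ME, 16623 to 19784 at IM3h, 3152 to 10758 at IM24h and 12318 to 20444 at IM72h, and 5 of the 6 fell at IM24h, with a median log2 change of -1.77. In RiboTag they summed to 4825 to 7415 CPM in naïve libraries, 1910 to 4953 CPM at IM3h, 1322 to 3911 CPM at IM24h and 2005 to 8594 CPM at IM72h, and 3 of 6 fell at IM3h and at IM24h. In RiboTag at IM3h, a time at which list genes are described below, 3 of 5 fibroblast and 2 of 3 mesothelial markers were lower as well. Of 6 glial markers there, Gfap was higher (log2 2.26), Erbb3 (-1.04) and Sox10 (-0.97) were lower, and 3 were not called. The 4 mesothelial markers summed to 92.1 to 133 CPM in naïve ME, 1.62 to 13.1 at IM3h and 5.59 to 83.9 at IM24h, when 4 and 1 of them were lower. In ME, 3 of 4 monocyte markers were higher at IM24h and 4 of 4 at IM72h, all 3 endothelial markers at IM72h, and all 4 proliferation markers at IM72h, with a median log2 change of 4.46, and also from IM24h to IM72h. The part of these cells in the levels of the 8 genes and of the list genes was not tested.

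Myc was close to the limit of counting in naïve RiboTag libraries, with 0, 0.112 and 1.63 CPM from 0, 1 and 14 counts. It stood at 45.2, 39, 32.5 and 28.3 CPM at IM3h. At IM24h it was 1.5, 0, 0 and 5.5 CPM, and the groups of naïve and IM24h libraries overlapped. In ME it was 2.9, 0.645 and 1.93 CPM in naïve tissue, 27.6, 50.1 and 18.8 CPM at IM3h, 12.4, 12.5, 17.3 and 7.68 CPM at IM24h and 5.96, 4.73, 5.43 and 1.82 CPM at IM72h. Both fractions were thus highest at 3 h, and only ME stayed clear of its naïve range at 24 h. The ME change at IM24h was 2.69 ± 0.48 (log2, SE; adjusted p = 0.0025), that at IM72h was 1.17 ± 0.49 (adjusted p = 0.0596), and Myc fell by 1.52 ± 0.37 on the log2 scale from IM24h to IM72h (adjusted p = 0.00843). Without IM72h library 4, the lowest of its group, the IM72h value against naïve was 1.43 with an adjusted p of 0.00997, and without naïve library 1 it was 1.63 with an adjusted p of 0.0402. The call thus depended on the setting, and the adjusted p was 0.00906 with library totals, 0.0387 without a filter on low counts and 0.033 with DESeq2. In RiboTag the IM24h value was 1.63 ± 2.03 (adjusted p = 0.819). It ran from 1.01 to 4.52 over the 5 fits with 1 library left out that tested Myc.

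Genes around MYC were read from lists that hold none of the 8 genes. At IM3h, where 8.86% of 16053 genes in RiboTag were higher and 4.44% lower, and 19.3% of 15333 genes in ME were higher and 13.4% lower, 9 of 14 MYC target genes rose in RiboTag and 11 of 14 in ME, with none lower. Their median log2 change was 1.46 in RiboTag and 0.96 in ME, beside -0.041 and 0.00071 over all genes tested. The RiboTag calls at IM3h, for these and for the lists that follow, depend on the fit, since the 46 list genes called in all became 24 with Actb, Hsp90ab1 and Rplp1 as the scale and 3 with all groups in 1 fit. In RiboTag the transferrin receptor gene Tfrc rose by 2.60 ± 0.40 (adjusted p = 0.00157), Ncl, which encodes nucleolin, by 2.38 ± 0.31 (adjusted p = 0.000542) and Nop58, a core protein of small nucleolar particles, by 2.11 ± 0.25 (adjusted p = 0.000326), all on the log2 scale by edgeR. In ME at IM24h, 9 of 14 targets were higher and 1 lower, with a median of 0.75 beside 0.02 over all genes. Among them Nme1, a nucleoside diphosphate kinase, was 31.8 ± 6.14 CPM (SD, n = 3) in naïve tissue and 108 ± 16.9 CPM (SD, n = 4) at IM24h, while the cyclin gene Ccnd2 was lower by edgeR with a log2 change of -1.24 (adjusted p = 0.000456). From IM24h to IM72h, 5 of 14 targets fell and 2 rose, and Ncl fell by 2.22 on the log2 scale. The MYC partners and antagonists were less one-sided, with medians of -0.20 in RiboTag at IM3h, 0.67 in ME at IM3h and -0.09 in ME at IM24h. In ME at IM3h, 5 of 9 rose, among them Max (log2 0.92), and 1 fell. Of 10 tested in RiboTag at IM3h, only Mnt passed (log2 1.16), and of 10 tested in ME at IM24h, 1 rose, Max, and 2 fell, Mxi1 and Mlxip. All 4 of these calls outside ME at IM3h are weak, with an adjusted p of up to 0.117 for Mnt, 0.182 for Max, 0.074 for Mxi1 and 0.118 for Mlxip when 1 library was left out.

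Bhlhe40 was above its naïve range in ME at every time after surgery. Naïve RiboTag libraries had 15.1, 14.7 and 9.69 CPM, IM3h libraries 39.6, 42.7, 40.2 and 50.4 CPM, and IM24h libraries 23.5, 15.2, 17.3 and 54.1 CPM. Summed over all transcripts, the IM24h libraries all lay above the naïve ones, the lowest of them by a narrow margin (15.2 against 15.1 CPM), with 1 library at the level of IM3h. A transcript annotated as a retained intron took 59.7, 100, 0 and 39.4% of the estimated IM24h counts, and 48.3, 28.8 and 13.4% of the naïve ones. Without that transcript, library 2 at IM24h had no count and fell below the naïve range. At IM72h the RiboTag libraries had 81.8, 23.8, 0 and 21.1 CPM. The retained intron took 98.1% of the counts in library 2 and 100% in library 4. In ME the values were 7.24, 5.8 and 9.07 CPM in naïve tissue, 30, 65.8 and 58.4 CPM at IM3h, 39.3, 44.1, 54.8 and 32.4 CPM at IM24h and 34.4, 25.4, 22.2 and 27.6 CPM at IM72h. The ME change was 2.51 ± 0.25 at IM24h (adjusted p = 0.000153) and 1.84 ± 0.20 at IM72h (adjusted p = 2.76e-05) on the log2 scale. Its fall of 0.67 ± 0.19 on the log2 scale from IM24h to IM72h passed with all libraries (adjusted p = 0.0182) but had an adjusted p of 0.0532 without IM24h library 3, 0.0645 without IM72h library 2 and 0.0709 without IM72h library 3. The RiboTag value at IM24h was 1.09 ± 0.71 (adjusted p = 0.587), and it turned to -0.37 with Actb, Hsp90ab1 and Rplp1 as the scale.

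Clock genes that BHLHE40 represses or works beside gave 4 of 10 higher and none lower in RiboTag at IM3h, with a median log2 change of 1.59. These included Per1, Per2 and Cry1, repressors in the core clock, with log2 changes of 2.89, 2.71 and 2.62. In ME, 5 of 9 were higher at IM3h, and 4 of 10 were higher and 3 lower at IM72h, the latter near the 29.3% and 28.3% of all genes, with medians of 0.91 and -0.38. At IM24h 2 of 10 were higher, near the 15.6% of all genes, namely Per2 (log2 2.37 ± 0.43, adjusted p = 0.00278, edgeR) and Per1 (1.70 ± 0.31, adjusted p = 0.00268). Clock, the activator of the loop, was lower in ME at IM24h (-0.49) and at IM72h (-1.18, adjusted p = 7.44e-06), though its IM24h value was 0.16 with library totals as the scale and its adjusted p there reached 0.125 when 1 library was left out. The time of day at which tissue was taken is not given in the sources used here.

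Summed over all its transcripts, Runx1 was about as high at IM24h as at IM3h in both fractions, which in RiboTag did not hold without the retained-intron transcript described below. Its RiboTag values were 7.54, 5.47 and 3.74 CPM in naïve libraries, 67, 79.9, 103 and 92.9 CPM at IM3h and 95.8, 29.9, 131 and 96.2 CPM at IM24h, and at IM72h 0.475, 59.4, 0 and 13.7 CPM. Every IM3h and IM24h library lay above every naïve one, and the IM72h libraries fell on both sides of them. In ME they were 5.79, 7.52 and 6.77 CPM in naïve tissue, 48.1, 69.7 and 48.8 CPM at IM3h, 63.1, 65.5, 97.9 and 50 CPM at IM24h and 20.4, 15.1, 17.9 and 21.5 CPM at IM72h. The RiboTag mean was 85.7 ± 15.6 CPM at IM3h and 88.3 ± 42.3 CPM at IM24h (SD, n = 4 each), and the ME mean 55.5 ± 12.3 CPM (SD, n = 3) and 69.1 ± 20.4 CPM (SD, n = 4). By edgeR, ME was higher by 3.37 ± 0.26 at IM24h (log2, adjusted p = 6.09e-05) and by 1.47 ± 0.19 at IM72h (adjusted p = 7e-05), and fell by 1.92 ± 0.21 between them (adjusted p = 9.94e-05).

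In RiboTag at IM24h, Runx1 was the 1 of 8 genes that passed the test, with a log2 change of 3.99 ± 0.60 (adjusted p = 0.0206, edgeR), where 0.366% of 15304 genes were higher and 0.131% lower. With libraries 1 and 4 alone, the pair with the higher Sox10 levels, the change was 4.13 (adjusted p = 0.0193), a setting added after the data were seen. The call depended on the settings and on single libraries. It was lost with library totals (log2 3.14, adjusted p = 0.221), with Actb, Hsp90ab1 and Rplp1 as the scale (log2 2.62, adjusted p = 0.229) and with all groups in 1 fit (log2 3.98, adjusted p = 0.276). The adjusted p was 0.0582 without IM24h library 2, 0.119 without IM24h library 4, and 0.0767, 0.17 and 0.148 without naïve libraries 1, 2 and 3, with the log2 change between 3.75 and 4.29 when 1 library was left out.

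Runx1 is transcribed from a distal and a proximal promoter on the minus strand of chromosome 16 in the mm10 build, and the transcript tables name products of both. The main distal transcript spans chr16:92601466-92826149 and the main proximal one chr16:92603656-92697328. Another entry, at chr16:92686989-92697325, is annotated as a retained intron and starts within 3 bases of the proximal transcript. The 300 bases of each promoter, 250 before and 50 after the annotated start in RefSeq on GRCm38.p6, are shown because the distal and proximal transcripts start in or near them, with any E-box (CACGTG) in capitals.
Runx1 distal promoter, chr16:92826025-92826324, minus strand: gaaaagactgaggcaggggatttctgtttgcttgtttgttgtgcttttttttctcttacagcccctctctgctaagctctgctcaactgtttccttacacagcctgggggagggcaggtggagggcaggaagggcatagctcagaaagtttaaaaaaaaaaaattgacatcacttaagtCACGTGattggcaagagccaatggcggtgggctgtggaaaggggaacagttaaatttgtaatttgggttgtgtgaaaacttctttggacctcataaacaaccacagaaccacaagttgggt
Runx1 proximal promoter, chr16:92697280-92697579, minus strand: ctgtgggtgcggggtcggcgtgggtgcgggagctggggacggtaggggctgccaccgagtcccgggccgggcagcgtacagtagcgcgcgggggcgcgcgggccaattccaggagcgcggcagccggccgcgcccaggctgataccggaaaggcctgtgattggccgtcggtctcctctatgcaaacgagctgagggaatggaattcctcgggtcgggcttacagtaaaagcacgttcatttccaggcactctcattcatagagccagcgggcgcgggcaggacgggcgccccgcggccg
The distal window holds 1 E-box, beginning 71 bases before the RefSeq start and within the distal transcript as given above, which starts further upstream, and the proximal window holds none. Of 32851 promoter windows of this length, 7.15% hold CACGTG.

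The estimated counts assigned to these entries shifted between groups, a pattern noticed after the values were seen and given with no test. Since these libraries read 3′ ends, the shares are estimates by transcript and do not measure the use of a promoter. In naïve RiboTag libraries the proximal transcript took 0.43, 0 and 5.3% of the Runx1 counts, which numbered 60, 49 and 32. At IM3h it took 26.9, 57.9, 41.3 and 51.6%, and at IM24h 57.3, 64.6, 0.076 and 57.4%. In ME it took 36.7 to 44.9% in naïve tissue, 35.6 to 48.4% at IM3h and 28 to 54% at IM24h, and then 2.19 to 12.6% at IM72h, where the distal transcript took 82.2 to 92.5%. Its share was thus low in naïve RiboTag libraries and in IM24h library 3, higher in the other RiboTag libraries at IM3h and IM24h, and lower in ME at IM72h than at the other times. In RiboTag IM72h library 2, Runx1 was 59.4 CPM over all transcripts and 4.63 CPM over the distal and proximal ones, with 92.2% on the retained intron. The retained-intron entry took 33.1 to 46.3% in naïve RiboTag libraries and 84.4% in IM24h library 3, against at most 5.51% in ME. Summed without it, the distal and proximal transcripts gave 4.05, 3.24 and 2.5 CPM in naïve RiboTag libraries and 83.8, 21.3, 20.5 and 80.7 CPM at IM24h, with 56.6, 77.9, 79.8 and 82.0 CPM at IM3h. Each IM24h library stayed above each naïve one, but libraries 2 and 3 lay below every IM3h library, and the mean without the retained intron was 74.1 ± 11.7 CPM at IM3h and 51.6 ± 35.5 CPM at IM24h (SD, n = 4 each).

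**Figure D3:**
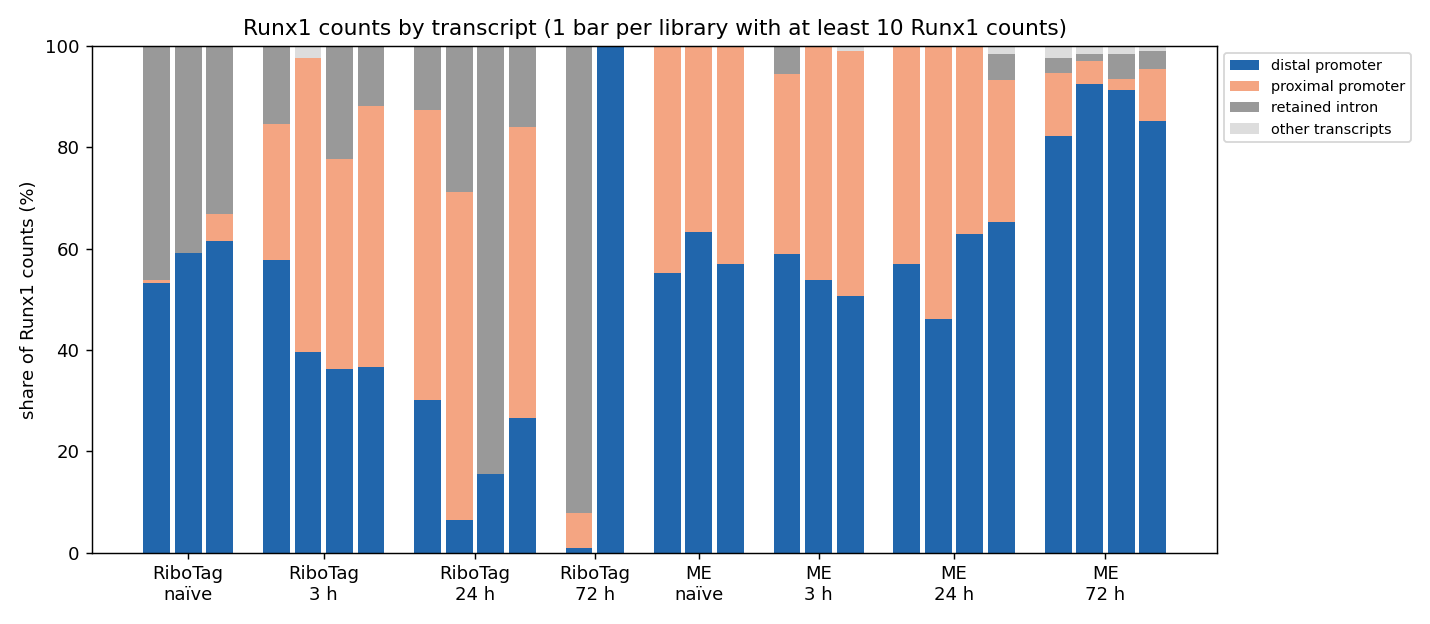
Share of the Runx1 counts (percent, vertical axis) assigned to the distal, proximal, retained-intron and other transcripts, 1 stacked bar per library with at least 10 Runx1 counts, grouped by fraction and time. The proximal share is at most 5.3% in naïve RiboTag libraries and 26.9 to 57.9% at IM3h.

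Runx2 was low in both fractions. In RiboTag it was 0.126, 3.58 and 0.7 CPM in naïve libraries, 1.83, 5.75, 1.84 and 6.49 CPM at IM3h and 1.87, 22.1, 15.5 and 4.17 CPM at IM24h. These groups overlapped, and the highest IM24h values were in libraries 2 and 3. In ME it was 0.724, 0.645 and 0.484 CPM in naïve tissue, from 6, 3 and 4 counts, then 4.36, 3.68 and 2.32 CPM at IM3h, 1.41, 2.2, 7.37 and 2.98 CPM at IM24h and 2.18, 2.4, 1.36 and 2.34 CPM at IM72h. The ME values after surgery lay above the naïve ones at each time. Its ME change was 2.47 ± 0.76 at IM24h (log2, adjusted p = 0.0329) and 1.71 ± 0.42 at IM72h (adjusted p = 0.00514). Both calls were lost with Actb, Hsp90ab1 and Rplp1 as the scale (edgeR, adjusted p = 0.106 at IM24h and 0.0551 at IM72h). The IM24h call rested on few counts: it had an adjusted p of 0.0852 without IM24h library 3, and of 0.101, 0.0984 and 0.123 without naïve libraries 1, 2 and 3. The RiboTag change at IM24h was 2.86 ± 1.55 (adjusted p = 0.48).

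Of 10 RUNX partners, 3 rose in RiboTag at IM3h and 6 rose and 2 fell in ME, with median log2 changes of 0.041 and 0.97. The 3 RiboTag calls were Cbfb, Tle3 and Yap1, all weak. With 1 library left out, the adjusted p by edgeR reached 0.119 for Tle3 and 0.0819 for Yap1. The partner subunit Cbfb rose by 0.98 in RiboTag at IM3h, with an adjusted p of up to 0.1 when 1 library was left out, and in ME by 1.53 ± 0.16 at IM24h (log2, adjusted p = 0.000211, edgeR). Runx3, the remaining family member, known from lymphocytes and myeloid cells, was 2.38 ± 1.45 CPM (SD, n = 3) in naïve ME and 15.1 ± 5.88 CPM (SD, n = 4) at IM24h, a log2 change of 2.72 ± 0.49 (adjusted p = 0.00258). At IM24h 5 of the 10 were higher in ME and none lower, with a median of 0.72. From IM24h to IM72h 6 of 10 fell, among them Cbfb by 0.71 and the corepressor gene Cbfa2t2 by 0.87, and none rose.

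Maff was among the shortest-lived signals in ME. Naïve ME had 4.34, 2.36 and 5.8 CPM, IM3h 118, 163 and 133 CPM, IM24h 21.3, 15.1, 23 and 12.4 CPM and IM72h 4.2, 4.43, 6.71 and 5.97 CPM. The IM24h libraries were below every IM3h library and above every naïve one, and the IM72h libraries overlapped the naïve ones. In RiboTag it was 4.4, 1.79 and 2.45 CPM in naïve libraries, 32.8, 49.6, 59.3 and 32.3 CPM at IM3h and 8.48, 16.8, 0.886 and 13.5 CPM at IM24h, with library 3 at IM24h below the naïve range. The ME change was 2.06 ± 0.36 at IM24h (log2, adjusted p = 0.00226) and 0.28 ± 0.31 at IM72h (adjusted p = 0.455), and it fell by 1.78 ± 0.26 between them (adjusted p = 0.000445). In RiboTag the IM24h value was 1.80 ± 1.32 (adjusted p = 0.648).

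The 4 RiboTag libraries at IM72h had no Maff count. Since 3 counts would be 1.32 to 2.89 CPM in these libraries, 1.88 CPM on average, Maff was at least 1.53-fold lower there than the naïve mean of 2.88 CPM, for counting error only. It was the 1 of 6 tested members called at IM72h in RiboTag (adjusted p = 0.00842, edgeR), where 15.1% of 13572 genes were lower and 1.05% higher. The Maff call was lost with DESeq2 (adjusted p = 0.157), without a filter on low counts (adjusted p = 0.153), and without ribosomal RNA genes Maff was not among the genes tested. Without IM72h library 2, Bach1 and Cebpd were called lower too (adjusted p = 0.019 each). Between IM24h and IM72h in RiboTag, edgeR called none of 6 tested members, and 0% of the 9335 genes higher and 0% lower, with 581 genes at an unadjusted p under 0.05, where DESeq2 called 45 higher and 53 lower.

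The middle of 3 annotated Maff promoters is shown because it holds motifs of stimulus-responsive factors. The capitals mark, in order, CACGTG (E-box), TGACGTCA (cAMP response element) and TTCCGGGAA (STAT motif).
Maff promoter, chr15:79347270-79347569, plus strand: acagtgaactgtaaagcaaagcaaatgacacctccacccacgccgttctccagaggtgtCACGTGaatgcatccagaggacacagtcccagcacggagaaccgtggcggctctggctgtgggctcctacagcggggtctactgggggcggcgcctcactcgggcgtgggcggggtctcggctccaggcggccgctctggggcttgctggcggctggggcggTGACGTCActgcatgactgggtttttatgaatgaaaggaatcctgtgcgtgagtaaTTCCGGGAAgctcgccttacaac
The motifs begin 191 and 29 bases before the start and 27 bases after it. Both strands were searched in 8 windows from 5 of the 8 genes that had an entry, Cebpb, Maff, Bach1, Runx1 and Runx2. TGACGTCA was in this 1 window of the 8 and in 1.79% of all 32851 windows, and TTCCGGGAA or its reverse complement TTCCCGGAA in this 1 window and in 0.35% of all. The AP-1 element TGACTCA, or TGAGTCA, and 2 NF-kappaB motifs were in none of the 8, and in 5.20% and 0.244% of all windows. Myc, Cebpd and Bhlhe40 had no entry.

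Bach1 stood far above its naïve spread at IM3h in RiboTag and lay between the naïve and IM3h levels at IM24h. It was 9.81, 14 and 22.3 CPM in naïve RiboTag libraries, 213, 189, 213 and 169 CPM at IM3h and 41.3, 71.3, 41.2 and 80.6 CPM at IM24h. Among these groups, no library reached the range of another group. At IM72h, Bach1 was 59.4 CPM in library 2, within the IM24h range, and 0 in the others. In ME it was 19.6, 20.8 and 14.6 CPM in naïve tissue, 97.8, 140.2 and 107 CPM at IM3h, 37.3, 60.5, 66.8 and 38.9 CPM at IM24h and 46.7, 41.8, 44.1 and 34.7 CPM at IM72h. The ME levels at IM24h and IM72h overlapped, and both lay above naïve. By edgeR the ME changes were 1.47 ± 0.25 at IM24h (adjusted p = 0.00209) and 1.17 ± 0.16 at IM72h (adjusted p = 0.000115), and -0.32 ± 0.21 between them (adjusted p = 0.247). The RiboTag change at IM24h was 1.95 ± 0.53 with an adjusted p of 0.12 by edgeR, and 1.87 with an adjusted p of 0.0146 by DESeq2.

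Several genes that BACH1 represses were higher at IM3h, the time at which Bach1 itself was highest. Of 10, 4 rose and 1 fell in RiboTag, and 7 rose and none fell in ME, with median log2 changes of 1.62 and 1.92. Hmox1, heme oxygenase 1, was 2.73 ± 0.539 CPM (SD, n = 3) in naïve and 61.6 ± 15 CPM (SD, n = 4) in IM3h RiboTag libraries (log2 4.54 ± 0.36, adjusted p = 2.57e-05, edgeR). Srxn1, which encodes sulfiredoxin, went from 21.5 ± 2.93 CPM to 755 ± 272 CPM (log2 5.19 ± 0.39, adjusted p = 1.85e-05). In ME at IM24h, 6 of 10 were higher and 1 lower (median 1.01), with Hmox1 at a log2 change of 4.46 ± 0.31 (adjusted p = 3.11e-05) and the cystine transporter gene Slc7a11 at 4.68 ± 0.84 (adjusted p = 0.00255). At IM72h, 4 of 10 were higher and 4 lower, near the shares over all genes of 29.3% and 28.3%. Hmox1 was still higher by 3.74, and among those lower was the ferritin gene Fth1 (edgeR, -3.93, adjusted p = 9.48e-05). Fth1 and Ftl1 have near-identical copies in the genome, so their counts are uncertain.

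Among the other CNC and MAF factors, 4 of 9 rose in RiboTag at IM3h, among them Mafk, Mafg and Nfe2l2, of which Mafg and Nfe2l2 had an adjusted p of up to 0.0955 and 0.0854 when 1 library was left out. The median log2 change of the 9 was 1.12, and in ME it was 0.36 at IM3h, with 5 of 9 higher and 2 lower, and 0.26 at IM24h, with 3 of 9 higher and none lower. Mafk, another small MAF, rose by 2.42 in RiboTag and 2.90 in ME on the log2 scale at IM3h. Nfe2l2, which encodes NRF2, the activator at the sites that BACH1 represses, rose by 1.39 in RiboTag at IM3h and by 1.14 ± 0.18 in ME at IM24h (adjusted p = 0.00132, edgeR), and fell by 1.34 from IM24h to IM72h.

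Cebpb was spread widely in naïve RiboTag, at 21.8, 1.56 and 2.1 CPM, with library 1 apart. It was 32.2, 41.3, 62.3 and 81.1 CPM at IM3h and 30.7, 33.6, 37.7 and 60.9 CPM at IM24h. Both groups lay above all naïve libraries and overlapped each other. At IM72h it was 0, 79.2, 76.2 and 32.3 CPM, above the naïve range in 3 of 4 libraries. In ME it was 9.53, 10.3 and 11.4 CPM in naïve tissue, 147, 291 and 120.5 CPM at IM3h, 27.6, 66.9, 47.3 and 25.7 CPM at IM24h and 69.2, 39.4, 63.4 and 40.4 CPM at IM72h. Its ME levels at IM24h and IM72h overlapped, both above naïve. The ME changes were 2.0 ± 0.34 at IM24h (log2, adjusted p = 0.00209) and 2.32 ± 0.23 at IM72h (adjusted p = 1.49e-05), and 0.31 ± 0.31 between the times (adjusted p = 0.473). In RiboTag at IM24h it was 2.28 ± 0.91 (adjusted p = 0.272), and 4.45 without naïve library 1.

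Cebpd had the highest ratio in ME and a lower one in RiboTag. ME values were 21.5, 14.8 and 32.8 CPM in naïve tissue, 857, 969.8 and 911 CPM at IM3h, 179.9, 321, 310.0 and 125 CPM at IM24h and 63.4, 54.9, 59.9 and 104 CPM at IM72h. The 4 groups did not overlap, in falling order from IM3h. RiboTag values were 15.8, 15 and 13.7 CPM in naïve libraries, 168, 122, 65.9 and 21.3 CPM at IM3h and 29.4, 38.5, 66.9 and 46.9 CPM at IM24h. The IM3h RiboTag libraries spread so widely that they spanned all the IM24h libraries. The ME changes were 3.32 ± 0.40 at IM24h (log2, adjusted p = 0.000324) and 1.57 ± 0.28 at IM72h (adjusted p = 0.000693), and it fell by 1.76 ± 0.32 between them (adjusted p = 0.00141). For RiboTag at IM24h the change was 1.62 ± 0.53 with an adjusted p of 0.173 by edgeR, and 1.56 with an adjusted p of 0.0476 by DESeq2. With Actb, Hsp90ab1 and Rplp1 as the scale this change was -0.041. The 3′ end of Cebpd, where these libraries take their reads, lies within Spidr on the opposite strand, and whether counting used the strand is not given in the sources used here.

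Cytokine and acute-phase genes known as C/EBP targets had, at IM3h and IM24h, the largest median change in ME of the 9 gene lists, though neutrophil markers had larger medians (5.79 and 6.82). In ME 9 of 9 rose at IM3h and 8 of 9 at IM24h, and 6 of 9 fell from IM24h to IM72h. The medians were 4.56, 5.90 and -2.29 on the log2 scale. Saa3, an acute-phase protein gene, went from 2.31 ± 0.262 CPM (SD, n = 3) in naïve ME to 534 ± 259 CPM (SD, n = 4) at IM24h, and Lcn2, which encodes lipocalin 2, from 1.03 ± 0.229 CPM to 149 ± 73.8 CPM. The chemokine gene Ccl2 rose by 7.55 in ME at IM24h (adjusted p = 9.85e-05) and fell by 2.61 by IM72h, both on the log2 scale by edgeR. In RiboTag 4 of 9 rose at IM3h, among them Ccl2, at 1.17 ± 1.31 CPM (SD, n = 3) in naïve and 117 ± 82.4 CPM (SD, n = 4) in IM3h libraries, and Socs3, a brake on cytokine signalling, at 5.76 ± 2.47 and 48 ± 21.6 CPM. Of the other C/EBP family genes tested, 2 of 5 rose in RiboTag and 4 of 5 in ME at IM3h, with Atf4 leading in both at log2 2.12 and 2.74, and none of 5 passed in ME at IM24h.

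Whether the 8 genes differed in timing from immediate early genes could be described between 3 and 24 h only, since no library was taken before 3 h and the order in which the genes came on cannot be read. Of 15 immediate early genes, 14 rose in RiboTag and 15 in ME at IM3h, with median log2 changes of 4.70 and 3.41. The mean was highest at IM3h for 15 of these in ME and 14 in RiboTag, Atf3 being the exception, and for 6 of the 8 factors in each fraction, with Runx1 and Runx2 highest at IM24h. For Runx1 in RiboTag the order turned without its retained-intron transcript. The Runx2 means in ME were nearly equal, 3.46 CPM at IM3h and 3.49 at IM24h, with medians of 3.68 and 2.59 CPM. In RiboTag the Runx2 lead at IM24h lay in libraries 2 and 3 (22.1 and 15.5 CPM), which were low in Sox10. Libraries 1 and 4 (1.87 and 4.17 CPM) lay within the IM3h range. The median log2 ratio of the IM24h to the IM3h mean was -2.52 for the immediate early genes and -1.27 for the 8 factors in ME. It was -2.92 and -0.85 in RiboTag, where 14 immediate early genes had a value. Among the factors the ratio ran in ME from -2.95 for Maff, as low as many immediate early genes, to 0.32 for Runx1, and in RiboTag from -4.37 for Myc to 1.46 for Runx2. All IM24h libraries were below all IM3h libraries for 5 of 8 factors and 13 of 15 immediate early genes in ME. The difference between the 2 sets was not tested, because the factors were chosen on the IM3h values.

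**Figure D4:**
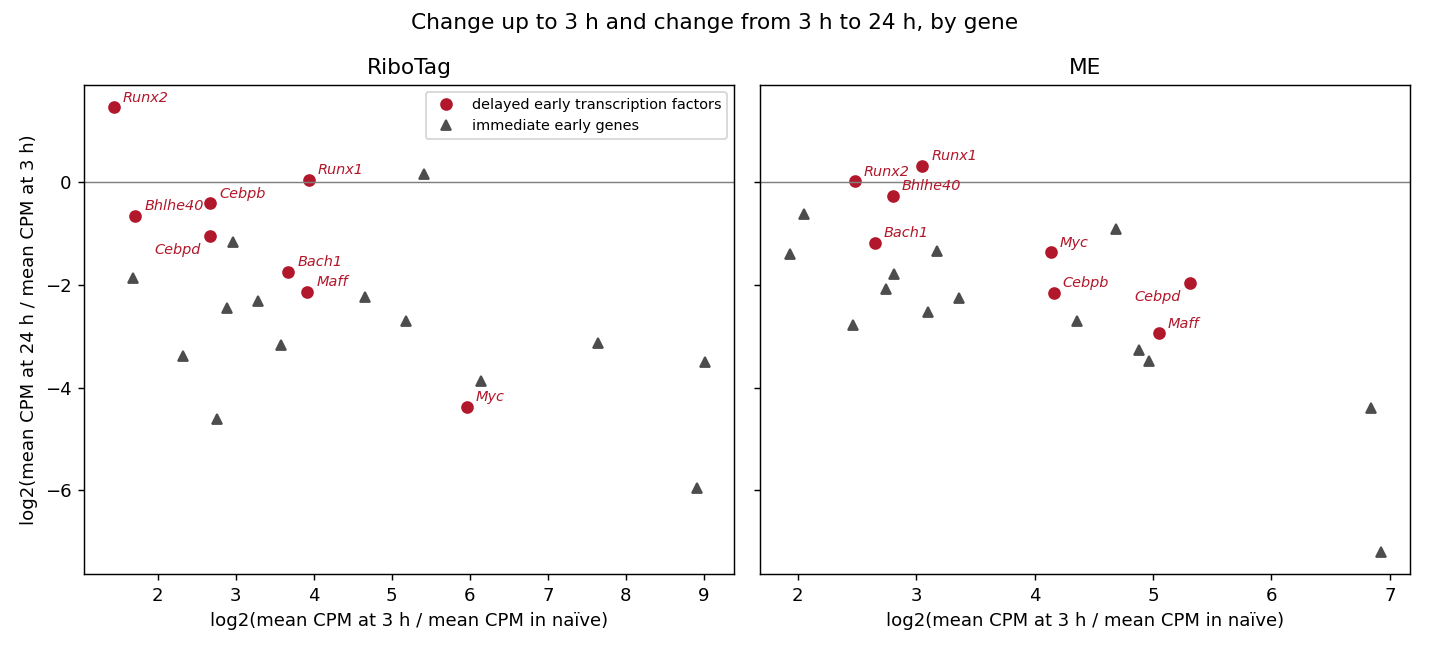
Log2 ratio of the IM3h to the naïve mean (horizontal axis) against log2 ratio of the IM24h to the IM3h mean (vertical axis) for the 8 factors (red circles) and the immediate early genes (grey triangles), with RiboTag and ME in separate panels. Runx1 and Runx2 lie at or above 0 on the vertical axis in both panels, and Maff in ME (-2.95) and Myc in RiboTag (-4.37) lie far below it.

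At IM24h the immediate early genes in ME still gave 7 of 14 higher than naïve and none lower, with Junb at 223 ± 52.2 CPM (SD, n = 4) against 16.3 ± 3.92 CPM (SD, n = 3). In RiboTag at IM24h, 1 of the 84 tested genes in all 9 lists passed, Atf3, with a log2 change of 5.55 ± 0.90 (adjusted p = 0.0206, edgeR), the same adjusted p as that of Runx1. When 1 library was left out, the adjusted p of Atf3 by edgeR reached 0.18, with a log2 change of 5.25 to 5.96.

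Responses in RiboTag and ME were set against each other by the interaction of fraction and treatment. The fractions came from separate tables, and their Cre lines differed in the naïve ME libraries. At IM24h none of the 8 genes passed (edgeR), where 0.274% of 17508 genes were higher in their RiboTag response and 0.263% lower, and 2357 genes had an unadjusted p under 0.05. The estimate was -1.69 ± 0.54 for Cebpd (adjusted p = 0.176), -1.40 ± 0.69 for Bhlhe40 (adjusted p = 0.389) and 0.65 ± 0.61 for Runx1 (adjusted p = 0.724). With library totals as the scale, that for Cebpd was -3.34 with an adjusted p of 0.0185 and that for Runx1 turned to -0.87. At IM72h, 1 of 7 passed, Maff at -8.07 ± 1.43 (adjusted p = 0.00206), where 21.1% of 16527 genes were lower and 2.15% higher. That estimate compares RiboTag libraries without a Maff count and depends on the prior count, so it gives no size.

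The 8 genes form 28 pairs. Pearson's r of their levels across the 14 ME libraries ran from 0.585 to 0.954 with a median of 0.831. In RiboTag it ran from -0.475 to 0.946 with a median of 0.471, across 15 libraries for 21 pairs and across 11 for the 7 pairs with Myc, which was not listed at IM72h. These libraries share the surgery groups and, within a group, depth and ribosomal RNA content. The genes outside the 8 whose log2 levels were most like the mean of the 8 were, among 17911 genes in ME, Zc3hav1 (r = 0.976), Ptpn1 (0.976), Cd44 (0.974), Uap1 (0.973) and Icam1 (0.971). In RiboTag, among 17233 genes, they were Hspa9 (0.970), Tet3 (0.959), Jun (0.947), Ccn1 (0.936) and Gm27219 (0.934).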

How the data were processed

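Small bowel muscularis externa of naïve mice and of mice at 3, 24 and 72 h after intestinal manipulation was profiled as total RNA (ME) and as ribosome-bound RNA of Sox10-expressing cells (RiboTag). The authors prepared QuantSeq 3′ libraries, which read the 3′ end of polyadenylated RNA, used cutadapt for trimming and STAR for alignment to mm10, and obtained counts per Ensembl transcript with Partek Flow. The deposited tables hold estimated counts, not normalised, per gene for ME and per transcript for each RiboTag time point, and list only features with a total of at least 10. Naïve RiboTag counts were identical in the tables that repeat them. Of 30 labelled samples 29 were in the tables, and the fourth naïve RiboTag sample was not analysed here. Lines of the tables name the group and not the sample, so library numbers follow the order of lines and do not pair samples. Tables of the authors' own comparisons hold fold changes and p-values and were not used.

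Counts of all transcripts that carry a gene's symbol were added up, and the sums were rounded. Two-sided tests were run on each pair of groups with edgeR 4.0.16 (quasi-likelihood, TMM, filterByExpr, R 4.3.3), with Benjamini-Hochberg adjustment over all genes tested and a threshold of 0.05. The response in RiboTag was tested against that in ME by an interaction term. CPM levels were scaled by TMM over all libraries of a fraction. The study describes its replicates as separate animals. The 8 genes, 9 gene lists (97 genes) and 12 marker lists were chosen with earlier results of these data known. Named were the 8 genes, at most 4 genes past the threshold per list and direction with the largest change, and the 5 genes per fraction with the highest Pearson correlation to the mean of the 8. Alternatives were DESeq2 1.42.0, library totals, DESeq2 size factors, the genes Actb, Hsp90ab1 and Rplp1 as scale, no filter, no ribosomal RNA genes, 1 fit per fraction, and each library left out. The fits were tested on simulated counts. Values of 1 list gene are not reported here. Gene positions are those of mm10, and promoter sequences are from RefSeq. Of the 28 member pairs and the likeness ranking, no p was computed.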

Additional observations from a re-analysis of the deposited data

Results flagged for a closer look

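In the 4 RiboTag libraries at IM72h, 1 library stood far from the other 3 for 3 of the 8 genes. Bach1 was 59.4 CPM in library 2 and 0 in the others. Cebpd was 62.5 CPM in the same library and at most 0.475 CPM in the others. Runx2 was 37.6 CPM in library 3 and at most 0.88 CPM in the others. The gap to the nearest library, as a share of the whole range, exceeded Dixon's critical value for 4 samples. In all, 38 groups of libraries were examined in this way, and chance alone marks about 1 in 20. These libraries held 60.2 to 81.7% ribosomal RNA and 2.64 and 0 CPM of Sox10 in libraries 2 and 3, and the part of this in the values was not tested.

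The response of Maff at IM72h differed between RiboTag and ME (edgeR interaction test, adjusted p = 0.00206). The fitted estimate of -8.07 on the log2 scale depends on the prior count and gives no size. With a limit of 3 counts per library, averaged over the 4 libraries, Maff was at least 1.53-fold lower in RiboTag at IM72h than in naïve libraries, for counting error only. All 4 RiboTag IM72h libraries were at 0 counts, against 4.2 to 6.71 CPM in ME at that time.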

How the results depend on the processing

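No paired analysis was possible because the lines of the tables carry no replicate numbers that match the labels. Of 154 values of counts of called genes under all alternatives, 136 stayed within 1.5 times the reported count. In RiboTag at IM24h the count of members called (1) was 0 with library totals, with Actb, Hsp90ab1 and Rplp1 as scale and with all groups in 1 fit, 3 with DESeq2, and 0 to 1 with 1 library left out. In RiboTag at IM72h against naïve (1) it was 0 without a filter, with DESeq2 and without ribosomal RNA genes, and 1 to 3 with 1 library left out. At IM72h against IM24h (0) it was 1 with all groups in 1 fit. The interaction gave 1 at IM24h with library totals (0 reported) and 1 to 3 at IM72h with 1 library left out. The 46 list genes called in RiboTag at IM3h became 24 with the 3 reference genes as scale and 3 with all groups in 1 fit, and 34 to 50 with 1 library left out. In ME, with 1 library left out, 7 to 8 members were called at IM24h, 6 to 7 at IM72h, 4 to 5 between them, and 66 to 71 list genes at IM3h. The cause of these shifts was not tested.

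The scale moved the centre of the changes. Library totals moved the median log2 change of all genes to 0.66 in ME at IM24h, 0.62 in ME at IM72h, -0.96 in RiboTag at IM24h and -2.13 in RiboTag at IM72h, each against naïve, and the reference genes moved it to -0.35, -0.58, -1.51 and -2.07. For RiboTag at IM72h against IM24h, library totals moved it from -0.18 to -1.08. In ME at IM24h, 2553 genes were higher and 2187 lower as reported, 6281 and 720 with library totals, and 756 and 1861 with the reference genes. In ME at IM72h these were 4855 and 4689, 8509 and 1964, and 2013 and 7981. From IM24h to IM72h in ME, 3024 were higher and 3248 lower, and 1245 and 2864 with the reference genes. In RiboTag at IM24h, 56 and 20 genes became 1 and 0 with either scale and 492 and 371 with DESeq2, and without IM24h library 2 or 4 none was called. With the reference genes the changes of Cebpd (-0.041) and Bhlhe40 (-0.37) in RiboTag at IM24h turned, as did Maff (-0.32), Ier3 (-0.18) and Maf (-0.27) in ME at IM72h and, by adjusted p, Runx2 lost its calls (0.106 at IM24h, 0.0551 at IM72h). With library totals the signs turned for Runx1 in the IM24h interaction (-0.87), for Clock (0.16) and Mlxip (0.082) in ME at IM24h, and for Ddit3 (0.25), Gclm (0.029), Keap1 (0.29), Runx1t1 (0.048), Tle1 (0.31), Tle4 (0.24) and Txnrd1 (0.023) in ME at IM72h, and Myc (adjusted p = 0.00906) and Maff (0.0449) in ME at IM72h gained a call. Myc at IM72h also passed without a filter (0.0387) and with DESeq2 (0.033). RiboTag depth limits what IM72h can show, with 8644 to 11416 genes detected against 16711 to 18198 in naïve libraries.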
